A study of Homo sapiens with 6 samples.

Results

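The HOX cluster genes were followed in cells short of ACSS2. They were taken as every row of the deposited count table whose gene name is HOX, a cluster letter from A to D and a number, which gave 40 rows with 39 names (HOXC5 had 2 identifiers) among 58735 features. The 40 rows lie in 4 clusters, with 11 in HOXA, 10 in HOXB, 10 in HOXC and 9 in HOXD. The study set cells with a lentiviral hairpin against ACSS2 (shACSS2, 3 libraries) against cells with a non-silencing hairpin (NS, 3 libraries), and both were selected with puromycin. ACSS2 is an enzyme of the nucleus and cytosol that makes acetyl-CoA from acetate. All libraries came from a line given as BE(2)-C, established from a human neuroblastoma and grown in DMEM with serum. The titles call the knockdown siACSS2 and one passage of the treatment text calls the line shNgBR, so the reagent rests on the treatment text and the group on the titles. Neither the number of hairpins against ACSS2 nor the origin of each library (its own culture or a shared one) is stated in the labels. A p-value here therefore measures the spread among 3 libraries of a group, which may be technical.

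HOX genes encode homeodomain transcription factors that give cells their position along the head-to-tail axis and along the limbs. The mammalian clusters arose by duplication of an ancestral cluster, so a gene in one cluster has paralogs with the same number in others. Low numbers lie at the 3′ end and are active towards the hindbrain, and high numbers lie at the 5′ end and are active towards the tail, the distal limb and the urogenital tract. Polycomb complexes keep inactive HOX genes silent, and trithorax proteins and retinoic acid receptors maintain or start their transcription.

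Library totals ran from 16617885 to 18133801 counts in shACSS2 and from 17073662 to 20831599 counts in NS. HOX genes took 0.0993% to 0.110% of the counts in shACSS2 libraries and 0.111% to 0.122% in NS libraries. ACSS2 itself (chromosome 20, 34872146 to 34927962, GRCh38) had 4.67, 5.14 and 6.16 CPM in shACSS2 libraries, against 20.8, 20.4 and 20.2 CPM in NS libraries, with a log2 fold change of −1.94 (SE 0.145; adjusted p = 1.95e-06 by edgeR). CPM are counts per 1000000 of the library, scaled by TMM composition factors, and CPM per kb divide them by the length of all exons of the gene. Of 16 listed sympathoadrenal markers, 3 reached a mean of 5 CPM, and PHOX2A, TFAP2B and TH had 0 counts in every library. These 3 defining markers of the labelled lineage were thus not detected, while GATA3, ISL1 and INSM1 of the same list were present. MYCN, also listed, was scarce in both groups, with 7, 15 and 18 counts in shACSS2 libraries and 27, 40 and 35 in NS libraries. Of 14 listed embryonic kidney markers, 10 reached that mean, IRS4 at 575 to 675 CPM in shACSS2 and 609.9 to 700.3 CPM in NS.

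HOX transcripts were present in both groups and came from all 4 clusters. Summed over the 40 rows they reached 1070 ± 43.1 CPM in shACSS2 and 1135 ± 35.2 CPM in NS (SD, n = 3 each). By library the sums were 1028, 1070 and 1114 CPM in shACSS2 and 1124, 1106 and 1174 CPM in NS. These overlap, unlike the shares of unscaled counts given above. Of the rows, 7 had a mean of at least 50 CPM over the 6 libraries, 19 had 10 to 50, 7 had 1 to 10, 6 had less than 1 and HOXB1 had none. The median of these means was 22.4 CPM over the 33 members that passed the filter on low counts, and 22.0 CPM over all genes that passed it. A count of 0 over all libraries allows up to 0.0277 CPM for HOXB1, a hindbrain gene, where this limit covers counting error only. Per kb of exon, the HOXA cluster summed to 143 ± 6.79 CPM per kb in shACSS2 and 140 ± 8.86 in NS, and the HOXB cluster to 111 ± 7.16 in shACSS2 and 105 ± 1.97 in NS. The HOXC cluster summed to 83.4 ± 2.68 CPM per kb in shACSS2 and 93.2 ± 1.45 in NS, and the HOXD cluster to 90.6 ± 0.774 in shACSS2 and 106 ± 1.14 in NS (SD, n = 3 each).

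**Figure D1:**
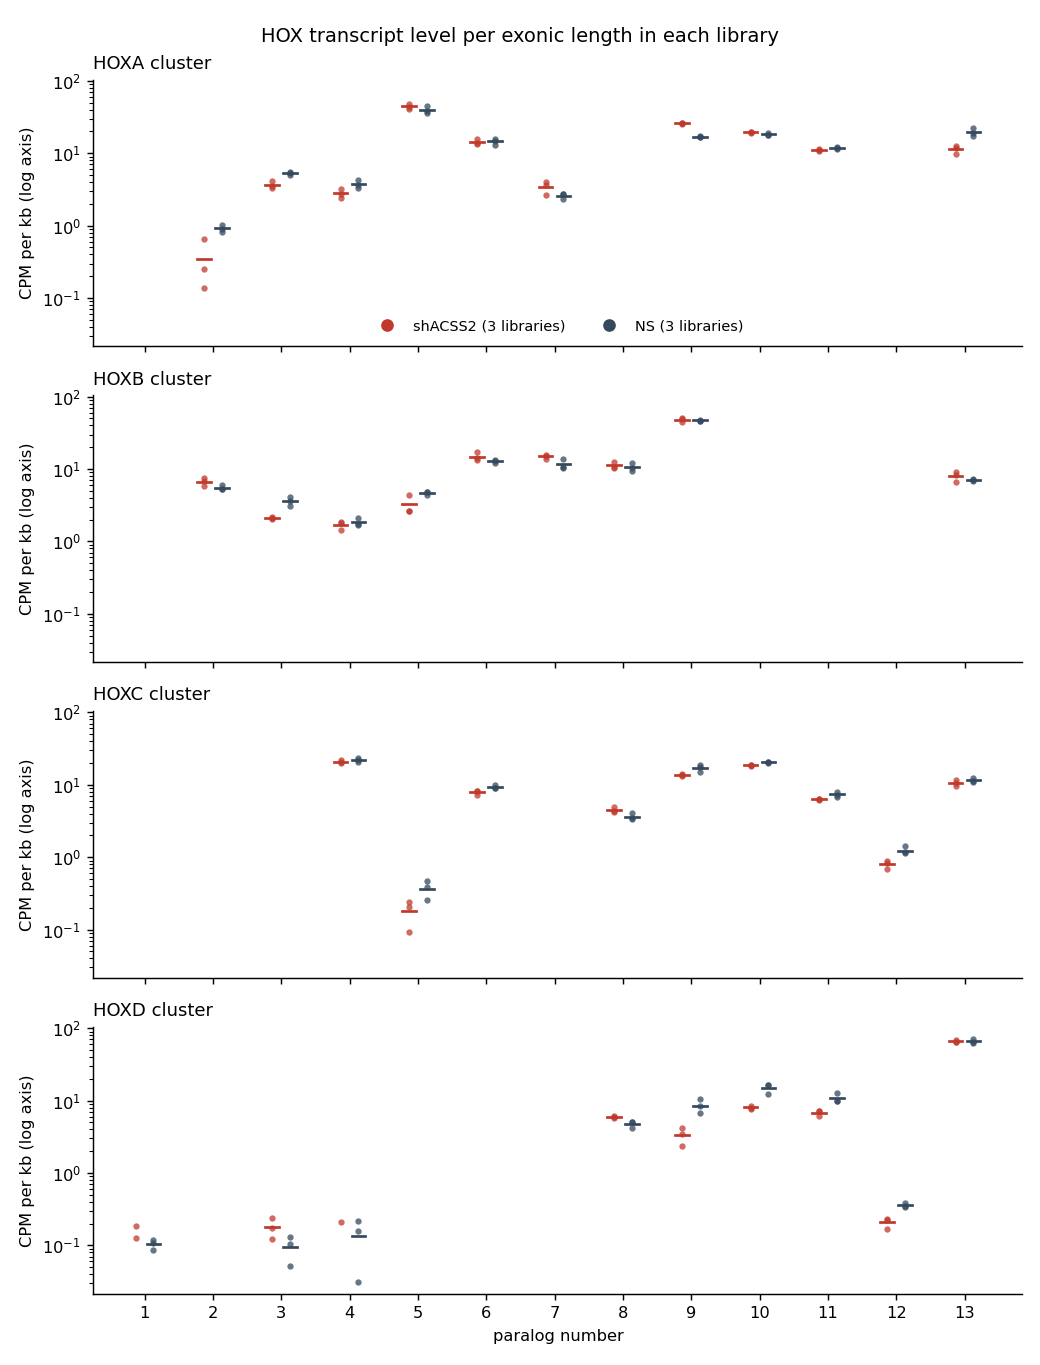
HOX transcript level in CPM per kb of exon (log axis) against paralog number, with 1 panel for each cluster. Points are libraries, shACSS2 left of NS, and bars are the means of 3 libraries, drawn where all 3 are above 0. Libraries at 0 and HOXB1 cannot be drawn on this axis, and the second HOXC5 row is left out. HOXD13 stands highest, at 65.9 CPM per kb in shACSS2 and 65.6 in NS, while HOXD1, HOXD3 and HOXD4 of the same cluster stay below 1. Most exonic bases of HOXD3 and HOXD4 are shared with a transcript on the same strand.

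The members with the highest level per length in each cluster belonged to different paralog groups, and none of these 4 passed the test of the groups. HOXD13, which shapes the digits, had 153, 144 and 146 CPM in shACSS2 libraries, against 139, 158 and 144 CPM in NS libraries, and the groups overlapped. Its log2 fold change was 0.01 (SE 0.0928), and its sign turned under 6 of 17 alternatives. HOXB9, a gene of the thoracic level, had 115, 125 and 133 CPM in shACSS2 libraries, against 120, 119 and 124 CPM in NS libraries. HOXA5, needed for the lung in mice, had 70.8, 75.5 and 83.1 CPM in shACSS2 libraries, against 62.4, 64.6 and 77.1 CPM in NS libraries. HOXC4, a gene of the neck level, had 54.7, 59.9 and 55.6 CPM in shACSS2 libraries, against 59.6, 56.3 and 64.1 CPM in NS libraries. For all 4 the groups overlapped. Per kb, HOXD13 lay above the others in both groups, while HOXB9 (48.2 ± 3.49 in shACSS2, 47.0 ± 1.11 in NS) and HOXA5 (44.8 ± 3.62 in shACSS2, 39.9 ± 4.66 in NS) were not apart by more than their spread in shACSS2 (SD, n = 3 each). HOXC4 followed at 20.8 ± 1.01 CPM per kb in shACSS2 and 22.0 ± 1.45 in NS.

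By paralog number, the highest sums per length were those of groups 13 and 9. Group 13 summed to 95.9 ± 1.53 CPM per kb in shACSS2 and 104 ± 4.21 in NS, and group 9 to 91.1 ± 4.75 in shACSS2 and 89.6 ± 2.87 in NS. Next came group 10 (46.1 ± 0.966 CPM per kb in shACSS2, 54.0 ± 2.34 in NS) and group 5 (48.2 ± 4.50 in shACSS2, 44.9 ± 4.73 in NS), which did not differ by more than their spread in shACSS2, and then group 6 (37.3 ± 2.18 in shACSS2, 36.7 ± 1.43 in NS). Groups 4, 11 and 8 summed to 25.4 ± 0.817, 24.2 ± 1.26 and 21.7 ± 1.81 CPM per kb in shACSS2, against 27.7 ± 1.85, 30.3 ± 1.65 and 19.1 ± 1.46 in NS. Group 7 had 18.3 ± 0.677 CPM per kb in shACSS2 and 14.3 ± 2.11 in NS. The lowest sums were those of groups 2, 3 and 12 among those given here, with 7.03 ± 0.631, 5.93 ± 0.522 and 1.01 ± 0.111 CPM per kb in shACSS2, against 6.46 ± 0.275, 8.97 ± 0.590 and 1.60 ± 0.137 in NS (SD, n = 3 each). A group's sum rested on few genes, and group 5 was mostly HOXA5.

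A minority of HOX genes changed, mostly downwards. Of 33 members that passed the filter on low counts, 7 fell and 1 rose by the quasi-likelihood F test of edgeR (Benjamini-Hochberg adjusted p under 0.05), and 25 did not pass. The 7 that fell are 21.2% of those tested and the 1 that rose is 3.03%, where over all 16210 genes tested 9.64% fell and 7.48% rose (17.1% in either direction). The median log2 fold change was −0.11 over the 33 members and 0.00 over all genes, with 19 members below and 14 above 0. In 14 members (42.4%) all shACSS2 libraries lay below all NS libraries and in 5 (15.2%) all lay above, against 18.7% and 17.6% of all genes. HOXA2 passed the filter through the NS libraries only and is among the 7, so these counts are a description. Fewer cells with a transcript and less transcript per cell cannot be told apart in bulk RNA.

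These shares rest on calls that moved with single libraries. Without NS replicate 1 the test called 310 genes higher and 708 lower over all genes, and without NS replicate 3 it called 363 higher and 788 lower, with 1 HOX member higher and 6 lower each time. Without shACSS2 replicate 1 it called 1837 higher and 2094 lower, with 2 HOX members higher and 7 lower. Without shACSS2 replicate 2 it called 801 genes higher and 1148 lower. The share of higher genes among all calls was 43.7%, against 25.8% when libraries were scaled by their totals alone and 61.2% with a correction for GC content and length. Leaving out NS replicate 1 brought it to 30.5%, leaving out NS replicate 3 to 31.5%, and a threshold of 0.01 to 32.7%. Deviations from the group mean across genes followed GC content with Spearman's rho of −0.60 in shACSS2 replicate 1, 0.47 in replicate 2 and 0.39 in replicate 3. In NS replicates 1, 2 and 3 rho was 0.11, −0.09 and 0.0045. Deviations within a group sum to 0, so the 3 values of a group are tied to each other. The tested HOX genes had a median GC content of 54.3% against 48.6% over all genes. Under the correction for GC content and length the 8 HOX calls held, HOXB7 was added to the members that rose and HOXB5, HOXC6 and HOXC9 to those that fell. With library totals the 8 calls held too, and HOXB5, HOXC9 and HOXC12 were added to those that fell.

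**Figure D2:**
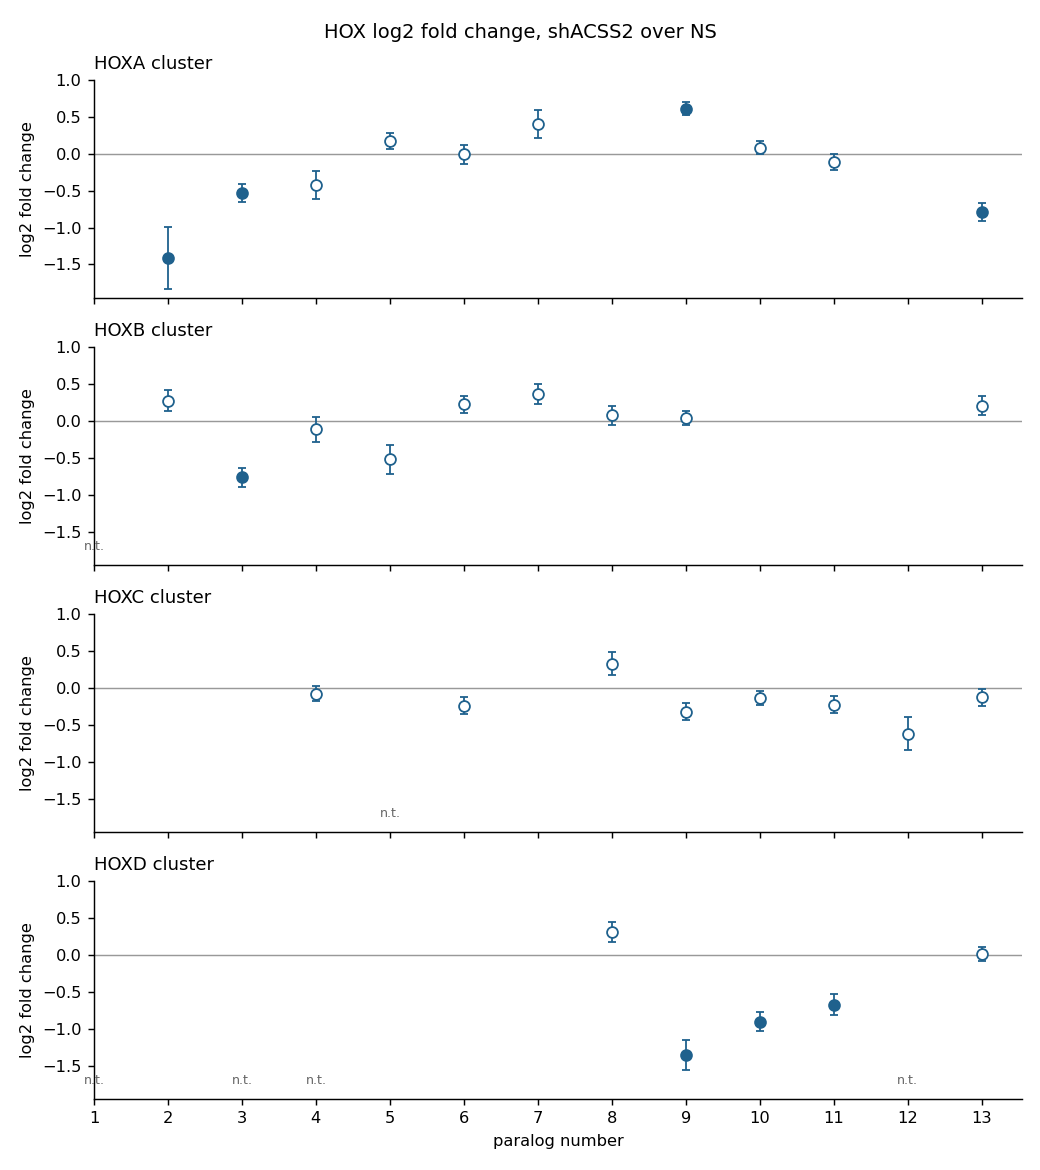
Log2 fold change of tested HOX genes, shACSS2 over NS, against paralog number, with 1 panel for each cluster. Bars are standard errors, filled points passed the test (adjusted p under 0.05) and n.t. marks members not tested. The 3 filled points of HOXD lie between −0.68 and −1.36 beside HOXD8 and HOXD13, which did not pass, and HOXA9 at 0.61 is the single filled point above 0.

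Outside the low-count HOXA2, the 2 largest falls were those of HOXD9 and HOXD10. With HOXD11 they lie in the 5′ part of the HOXD cluster (chromosome 2, 176092891 to 176190907, plus strand, GRCh38). Their annotated starts are 11.3 to 29.8 kb from that of HOXD13. HOXD9, which with its neighbours patterns the limb and the lumbosacral axis, had 4.36, 7.71 and 6.50 CPM in shACSS2 libraries, against 19.5, 12.4 and 16.0 CPM in NS libraries. Its log2 fold change was −1.36 (SE 0.203; adjusted p = 0.000511 by edgeR). HOXD10, a gene of lumbar motor neurons and the limb, had 21.4, 20.7 and 22.7 CPM in shACSS2 libraries, against 44.9, 32.9 and 44.3 CPM in NS libraries, a log2 fold change of −0.91 (SE 0.129; adjusted p = 0.000356 by edgeR). HOXD11, which acts with HOXA11 in the forearm and kidney of mice, had 12.8, 15.3 and 15.1 CPM in shACSS2 libraries, against 27.2, 20.9 and 21.0 CPM in NS libraries, a log2 fold change of −0.68 (SE 0.139; adjusted p = 0.00439 by edgeR). The groups did not overlap for any of these 3, and NS replicate 2 was the lowest NS library for each. HOXD10 and HOXD11 overlap on the same strand, over 16.8% of the exonic bases of HOXD10 and 21.4% of those of HOXD11, so reads there cannot be given to one or the other with certainty.

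The nearest tested genes on either side did not pass. HOXD8, on the 3′ side, had 14.9, 15.8 and 16.1 CPM in shACSS2 libraries, against 11.0, 13.3 and 13.5 CPM in NS libraries. All shACSS2 libraries were higher, but the log2 fold change of 0.31 (SE 0.132) did not pass (adjusted p = 0.117 by edgeR). HOXD13, the nearest tested gene on the 5′ side, had a log2 fold change of 0.01, as given above. HOXD12, which lies between HOXD13 and HOXD11 and did not pass the count filter, had 0.311, 0.306 and 0.224 CPM in shACSS2 libraries, against 0.512, 0.476 and 0.461 CPM in NS libraries, all shACSS2 libraries being lower. The remaining HOXD genes had few counts and did not pass the filter either. Of the exonic bases of HOXD3 and HOXD4, 62.2% and 80.5% are shared with a transcript on the same strand. Reads there cannot be given to one or the other with certainty, so low counts do not settle the level of these genes. HOXD3 had 0.630 ± 0.206 CPM in shACSS2 and 0.337 ± 0.139 in NS, HOXD1 had 0.205 ± 0.187 in shACSS2 and 0.204 ± 0.0305 in NS, and HOXD4 had 0.104 ± 0.180 in shACSS2 and 0.197 ± 0.138 in NS (SD, n = 3 each). The cluster summed to 208, 204 and 208 CPM in shACSS2 libraries, against 243, 239 and 240 CPM in NS libraries, which do not overlap.

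In the HOXA cluster (chromosome 7, 27092993 to 27200106, minus strand, GRCh38) both directions occurred among the high-numbered genes. HOXA13, needed for the digits and the urogenital tract, had 50.0, 59.8 and 63.4 CPM in shACSS2 libraries, against 95.9, 88.3 and 115 CPM in NS libraries. The groups stood well apart, at a log2 fold change of −0.79 (SE 0.119; adjusted p = 0.000577 by edgeR). HOXA9, best known from blood stem cells and leukaemia, had 77.6, 78.5 and 78.9 CPM in shACSS2 libraries, against 51.2, 50.7 and 52.1 CPM in NS libraries, a log2 fold change of 0.61 (SE 0.0927; adjusted p = 0.00059 by edgeR). Its libraries lay close together within each group, with SDs of 0.623 CPM in shACSS2 and 0.696 CPM in NS (n = 3 each). Of the exonic bases of HOXA9, 15.9% are shared with a transcript on the same strand and 13.9% lie opposite other transcripts, among them HOXA10-AS. HOXA10 and HOXA11, genes of the uterus and proximal limb between these 2, had 72.0 ± 1.60 and 25.5 ± 1.13 CPM in shACSS2, against 68.0 ± 2.18 and 27.6 ± 0.840 CPM in NS (SD, n = 3 each), and did not pass (adjusted p = 0.576 and 0.517 by edgeR).

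**Figure D3:**
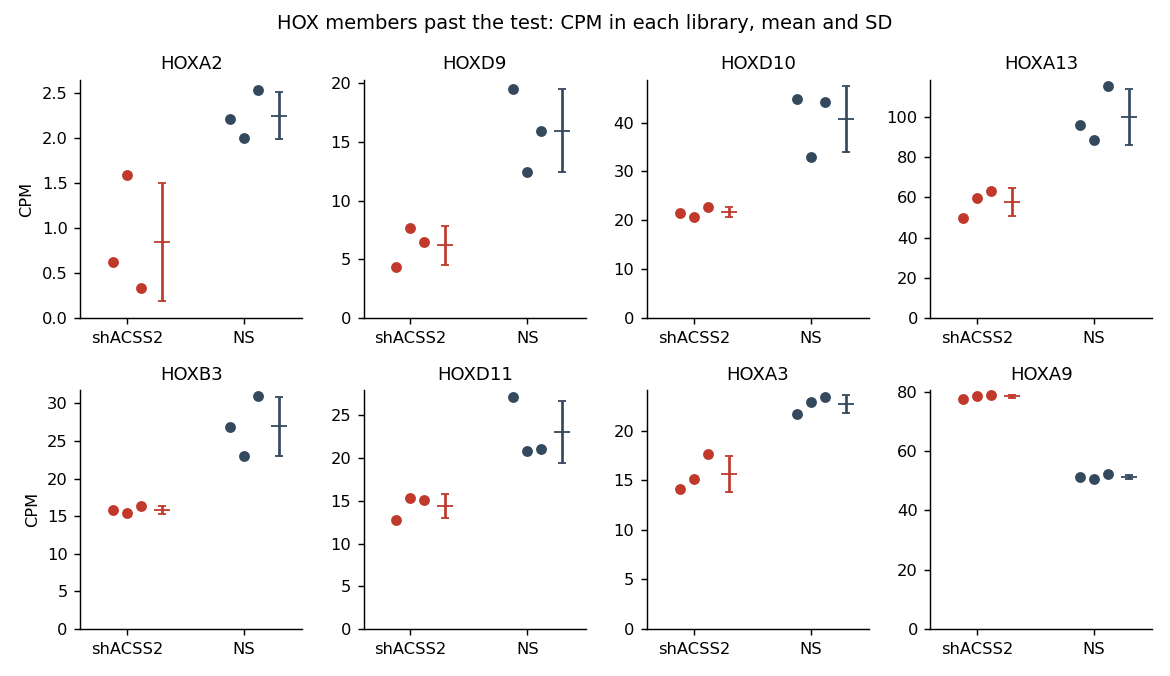
CPM of the 8 HOX genes past the test in each library, shACSS2 left of NS, with the mean and SD of 3 libraries beside the points. No panel shows an overlap of the groups, HOXA9 alone is higher in shACSS2, and HOXA2 stays below 3 CPM in every library.

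The sequence before a RefSeq transcript start is shown for 4 members past the test. They are a pair that fell side by side in HOXD (HOXD10, HOXD11) and the HOXA genes that moved in opposite directions (HOXA13, HOXA9). The sequences are RefSeq windows of 250 bases upstream of a transcript start (GRCh38.p14), 5′ to 3′ on the gene's strand, at chr7:27200092-27200341 for HOXA13, chr2:176116528-176116777 for HOXD10, chr2:176107030-176107279 for HOXD11 and chr7:27165538-27165787 for HOXA9. Capitals mark matches on either strand to TATAAA (the TATA box), CCAAT (the CCAAT box), GGGCGG (the GC box), CACGTG (the E-box that MYC and MAX bind), TTTATGG or TGATTTAT (HOX and HOX-PBX words), and matches that overlap run together.
HOXA13: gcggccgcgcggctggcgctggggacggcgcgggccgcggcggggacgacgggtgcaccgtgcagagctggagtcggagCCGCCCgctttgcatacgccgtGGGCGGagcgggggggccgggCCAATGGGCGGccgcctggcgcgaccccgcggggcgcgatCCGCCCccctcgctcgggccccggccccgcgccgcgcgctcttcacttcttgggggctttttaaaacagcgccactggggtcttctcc
HOXD10: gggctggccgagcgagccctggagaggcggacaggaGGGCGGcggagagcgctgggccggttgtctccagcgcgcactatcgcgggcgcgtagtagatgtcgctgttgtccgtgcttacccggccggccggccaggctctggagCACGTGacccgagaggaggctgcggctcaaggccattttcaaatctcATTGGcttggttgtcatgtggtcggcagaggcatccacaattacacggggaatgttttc
HOXD11: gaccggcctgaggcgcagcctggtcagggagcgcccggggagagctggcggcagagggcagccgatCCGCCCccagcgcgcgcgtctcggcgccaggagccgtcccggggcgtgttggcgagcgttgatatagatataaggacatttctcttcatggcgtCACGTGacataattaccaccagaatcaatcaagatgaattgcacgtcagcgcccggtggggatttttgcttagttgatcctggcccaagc
HOXA9: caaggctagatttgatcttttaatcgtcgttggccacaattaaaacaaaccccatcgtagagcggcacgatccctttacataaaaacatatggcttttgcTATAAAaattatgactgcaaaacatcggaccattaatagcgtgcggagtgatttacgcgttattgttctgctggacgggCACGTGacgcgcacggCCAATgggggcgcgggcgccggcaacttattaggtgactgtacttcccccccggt

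Each of the windows of HOXD10, HOXD11 and HOXA9 holds a CACGTG, and that of HOXA13 holds 4 matches to GGGCGG. Windows were found for 20 of the 39 HOX names, 27 windows in all. Several of these windows belong to HOXA3, and HOXC4 and HOXC5 have the same window, which is counted under each name. HOXB entered through HOXB1 alone, so the windows are neither independent nor spread evenly over the clusters. CACGTG occurred in 29.6% of the HOX windows, against 6.35% of 35116 windows of all genes, and CCAAT in 66.7% against 32.0%. GGGCGG occurred in 48.1% against 42.6%, TATAAA in 18.5% against 10.7%, TTTATGG in 3.70% against 2.29% and TGATTTAT in 0% against 0.752%. HOX windows had a median observed over expected CpG of 0.888, against 0.558 for all. The windows of HOXD13, which did not pass, and of HOXD1, HOXD3, HOXA3 and HOXA4 also hold CACGTG, and such a match is a description of letters and not a binding site.

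A pair of called members of HOXA lies at the low-numbered end. HOXA3, needed for thymus and parathyroid in mice, had 14.1, 15.1 and 17.6 CPM in shACSS2 libraries, against 21.7, 22.9 and 23.4 CPM in NS libraries. It fell by 0.54 on the log2 scale (SE 0.125; adjusted p = 0.0092 by edgeR), and the groups did not overlap. HOXA2, which patterns the second pharyngeal arch, had 0.623, 1.59 and 0.336 CPM in shACSS2 libraries, against 2.22, 2.01 and 2.54 CPM in NS libraries, from 10, 26 and 6 counts in shACSS2 and 39, 38 and 55 counts in NS. It fell by 1.42 on the log2 scale (SE 0.421; adjusted p = 0.0303 by edgeR). This call was lost on leaving out any single library except shACSS2 replicate 2, with adjusted p of 0.0642 without shACSS2 replicate 1, 0.0985 without shACSS2 replicate 3, and 0.0889, 0.0507 and 0.117 without NS replicates 1, 2 and 3. The other 7 calls held under all alternatives.

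Other HOXA genes did not pass. HOXA4 had 4.87 ± 0.721 CPM in shACSS2 and 6.52 ± 0.813 in NS. HOXA6 had 18.6 ± 1.62 CPM in shACSS2 and 18.7 ± 1.86 in NS, and HOXA7 had 8.25 ± 1.79 in shACSS2 and 6.26 ± 0.593 in NS (SD, n = 3 each). Of these, HOXA4 alone showed no overlap of the groups. The sign of HOXA6 depended on the setting. The HOXA sum was 355, 376 and 390 CPM in shACSS2 libraries, against 375, 369 and 413 CPM in NS libraries, which overlap.

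HOXB and HOXC had 1 called member between them. HOXB3 (HOXB cluster, chromosome 17, 48528526 to 48729178, minus strand, GRCh38), a gene of the hindbrain and pharynx, had 15.8, 15.3 and 16.4 CPM in shACSS2 libraries, against 26.8, 23.0 and 30.9 CPM in NS libraries. The groups did not overlap, and the log2 fold change was −0.77 (SE 0.129; adjusted p = 0.00123 by edgeR). Group 3 thus had both of its tested members past the test. Its sum was 32.1 ± 2.40 CPM in shACSS2 and 49.9 ± 4.19 CPM in NS (SD, n = 3 each).

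Other HOXB genes spread around 0. HOXB7 had the largest rise of the cluster, with 23.7, 23.4 and 21.3 CPM in shACSS2 libraries, against 16.6, 21.2 and 15.7 CPM in NS libraries. The groups did not overlap, but by a small margin over NS replicate 2, and the log2 fold change of 0.36 (SE 0.133) did not pass (adjusted p = 0.0759 by edgeR). It passed without NS replicate 2 (0.50, adjusted p = 0.0278), and with the GC and length correction alone (0.32, adjusted p = 0.0424) or with the replicate block added (0.32, adjusted p = 0.0323). HOXB5 had 6.63 ± 2.07 CPM in shACSS2 and 9.58 ± 0.483 in NS (SD, n = 3 each). Its log2 fold change of −0.53 (SE 0.193; adjusted p = 0.0707 by edgeR) passed under 6 of 17 alternatives, and without shACSS2 replicate 3 it was −0.82 (adjusted p = 0.0115). HOXB13, a prostate gene, had 28.0 ± 4.46 CPM in shACSS2 and 24.4 ± 0.928 in NS and passed without shACSS2 replicate 1 (log2 fold change 0.32, adjusted p = 0.0283). HOXB2, HOXB4, HOXB6 and HOXB8 had 15.6 ± 1.95, 6.36 ± 0.891, 38.8 ± 5.21 and 23.0 ± 2.56 CPM in shACSS2, against 12.9 ± 0.830, 6.93 ± 0.771, 33.3 ± 1.24 and 21.9 ± 2.76 CPM in NS (SD, n = 3 each), with log2 fold changes of 0.27, −0.12, 0.22 and 0.07. The HOXB sum was 264, 278 and 302 CPM in shACSS2 libraries, against 272, 269 and 284 CPM in NS libraries, and its log2 ratio of 0.03 turned negative without shACSS2 replicate 3 (−0.022) and with library totals (−0.040).

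No HOXC gene (chromosome 12, 53938765 to 54056030, plus strand, GRCh38) passed edgeR's test, DESeq2 or limma voom, and 3 were lower at an unadjusted p under 0.05 (HOXC6, HOXC9 and HOXC12). HOXC12 had the largest difference, with 2.99, 2.26 and 2.80 CPM in shACSS2 libraries, against 3.76, 3.91 and 4.70 CPM in NS libraries. Its log2 fold change of −0.62 (SE 0.22; adjusted p = 0.0625 by edgeR) passed with library totals and without shACSS2 replicate 1 (−0.70, adjusted p = 0.0479). HOXC8, a gene of thoracic motor neurons, had 7.91, 8.32 and 9.30 CPM in shACSS2 libraries, against 7.63, 6.29 and 6.50 CPM in NS libraries, the largest rise of the cluster at a log2 fold change of 0.33 (SE 0.16; adjusted p = 0.172 by edgeR). HOXC9, which sets thoracic motor columns in mice, had 23.0 ± 0.644 CPM in shACSS2 and 28.8 ± 3.14 in NS, and HOXC6 had 27.8 ± 2.28 in shACSS2 and 32.9 ± 1.78 in NS. HOXC10, HOXC11 and HOXC13, the last a gene of hair follicles, had 43.3 ± 1.15, 20.6 ± 0.614 and 25.7 ± 2.28 CPM in shACSS2, against 47.8 ± 1.04, 24.2 ± 1.81 and 28.1 ± 1.50 CPM in NS (SD, n = 3 each). HOXC5 had few counts, at 0.324 ± 0.139 CPM in shACSS2 and 0.664 ± 0.196 in NS for its protein-coding row. Its second row held 2 counts in all, both in NS, and neither row was tested. These rows share 59.9% and 99.8% of their exonic bases with same-strand transcripts, each other among them, so low counts do not settle the level of HOXC5. No single member passed. In 5 of the 8 tested (HOXC6, HOXC9, HOXC10, HOXC11 and HOXC12) all shACSS2 libraries lay below all NS libraries, as in 18.7% of all genes. In HOXC8 all lay above, as in 17.6% of all genes. The cluster summed to 201, 212 and 214 CPM in shACSS2 libraries, against 234, 229 and 237 CPM in NS libraries.

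The unequal changes within clusters show as ratios of counts taken within each library, which no scaling between libraries can move. These pairs were chosen after their values were seen. HOXA9 counts were 1.55, 1.31 and 1.24 times those of HOXA13 in shACSS2 libraries, against 0.534, 0.574 and 0.452 times in NS libraries, so the more counted of the 2 genes differed between the groups. HOXD8 counts were 3.43, 2.05 and 2.48 times those of HOXD9 in shACSS2 libraries, against 0.566, 1.07 and 0.844 times in NS libraries. HOXD13 counts were 7.15, 6.92 and 6.43 times those of HOXD10 in shACSS2 libraries, against 3.10, 4.80 and 3.25 times in NS libraries. For each ratio the groups did not overlap, which the choice of the pairs made likely beforehand. An exact two-sided permutation test gave p = 0.1, the smallest that 3 against 3 libraries allow. With pairs chosen this way it is a description and adds no support. Across the 33 tested members the log2 fold change had a Spearman's rho of −0.06 with paralog number, 0.16 with level and −0.11 with GC content, given as a description over genes that share the same libraries.

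The clusters also hold RNAs that are no HOX genes, mostly antisense, some of which have been tied to regulation of the HOX genes beside them. Of 16 such RNAs tested, 6 fell and none rose by edgeR (2 were higher and 9 lower at an unadjusted p under 0.05; DESeq2 called 0 higher and 6 lower, voom 0 and 5), with a median log2 fold change of −0.47. The 6 are 37.5% of those tested, where 9.64% of all genes fell and 7.48% rose. HOXC-AS3 is among the 6, with 6 counts in each shACSS2 library and 25, 24 and 32 in NS libraries. It passed the filter on low counts through the NS libraries only, so the numbers of RNAs called are a description. HOXC-AS3, which lies opposite HOXC10, had 0.374, 0.367 and 0.336 CPM in shACSS2 libraries, against 1.42, 1.27 and 1.48 CPM in NS libraries, a log2 fold change of −1.94 (SE 0.402; adjusted p = 0.00482 by edgeR). HOXD-AS2 has exons opposite HOXD3, and its span (176121611 to 176137098) also covers HOXD8 and HOXD9 on the other strand. It had 3.24, 4.46 and 2.63 CPM in shACSS2 libraries, against 9.39, 5.39 and 7.75 CPM in NS libraries. Its log2 fold change was −1.13 (SE 0.238; adjusted p = 0.00525 by edgeR). HOXA-AS2, opposite HOXA3 and HOXA4, and HOXC-AS2, opposite HOXC6 and HOXC9, fell by 0.77 and 0.45 on the log2 scale (adjusted p = 0.00877 and 0.0484 by edgeR). The call of HOXA-AS2 was lost without NS replicate 1 (adjusted p = 0.0535). That of HOXC-AS2 was lost with voom (0.0610), upper quartile scaling (0.0526) and without any 1 library except NS replicate 2 (0.0525 to 0.227).

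Calls also moved for HOXA10-AS and HOXA-AS3. HOXA10-AS, opposite HOXA9 and HOXA10, had a log2 fold change of −0.95 (adjusted p = 0.0295 by edgeR) and lost its call without shACSS2 replicates 2 or 3 and NS replicates 1 or 3 (adjusted p of 0.0979, 0.0609, 0.0521 and 0.177). HOXA-AS3, opposite exons of HOXA3, HOXA4, HOXA6 and HOXA7, had a log2 fold change of −0.84 (adjusted p = 0.0128 by edgeR) and lost its call without NS replicate 1 (adjusted p = 0.0943). HOTAIR, an RNA from the HOXC cluster known for its tie to polycomb, had 17.2, 16.5 and 15.0 CPM in shACSS2 libraries, against 16.8, 13.9 and 17.8 CPM in NS libraries. HOTAIRM1, from the 3′ end of HOXA, and HAGLR beside HOXD1 had log2 fold changes of 0.26 and 0.28 and did not pass (adjusted p = 0.139 and 0.131 by edgeR). No source used here says whether counting used strand, so reads of an antisense RNA and of the HOX gene opposite it cannot be told apart.

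**Figure D4:**
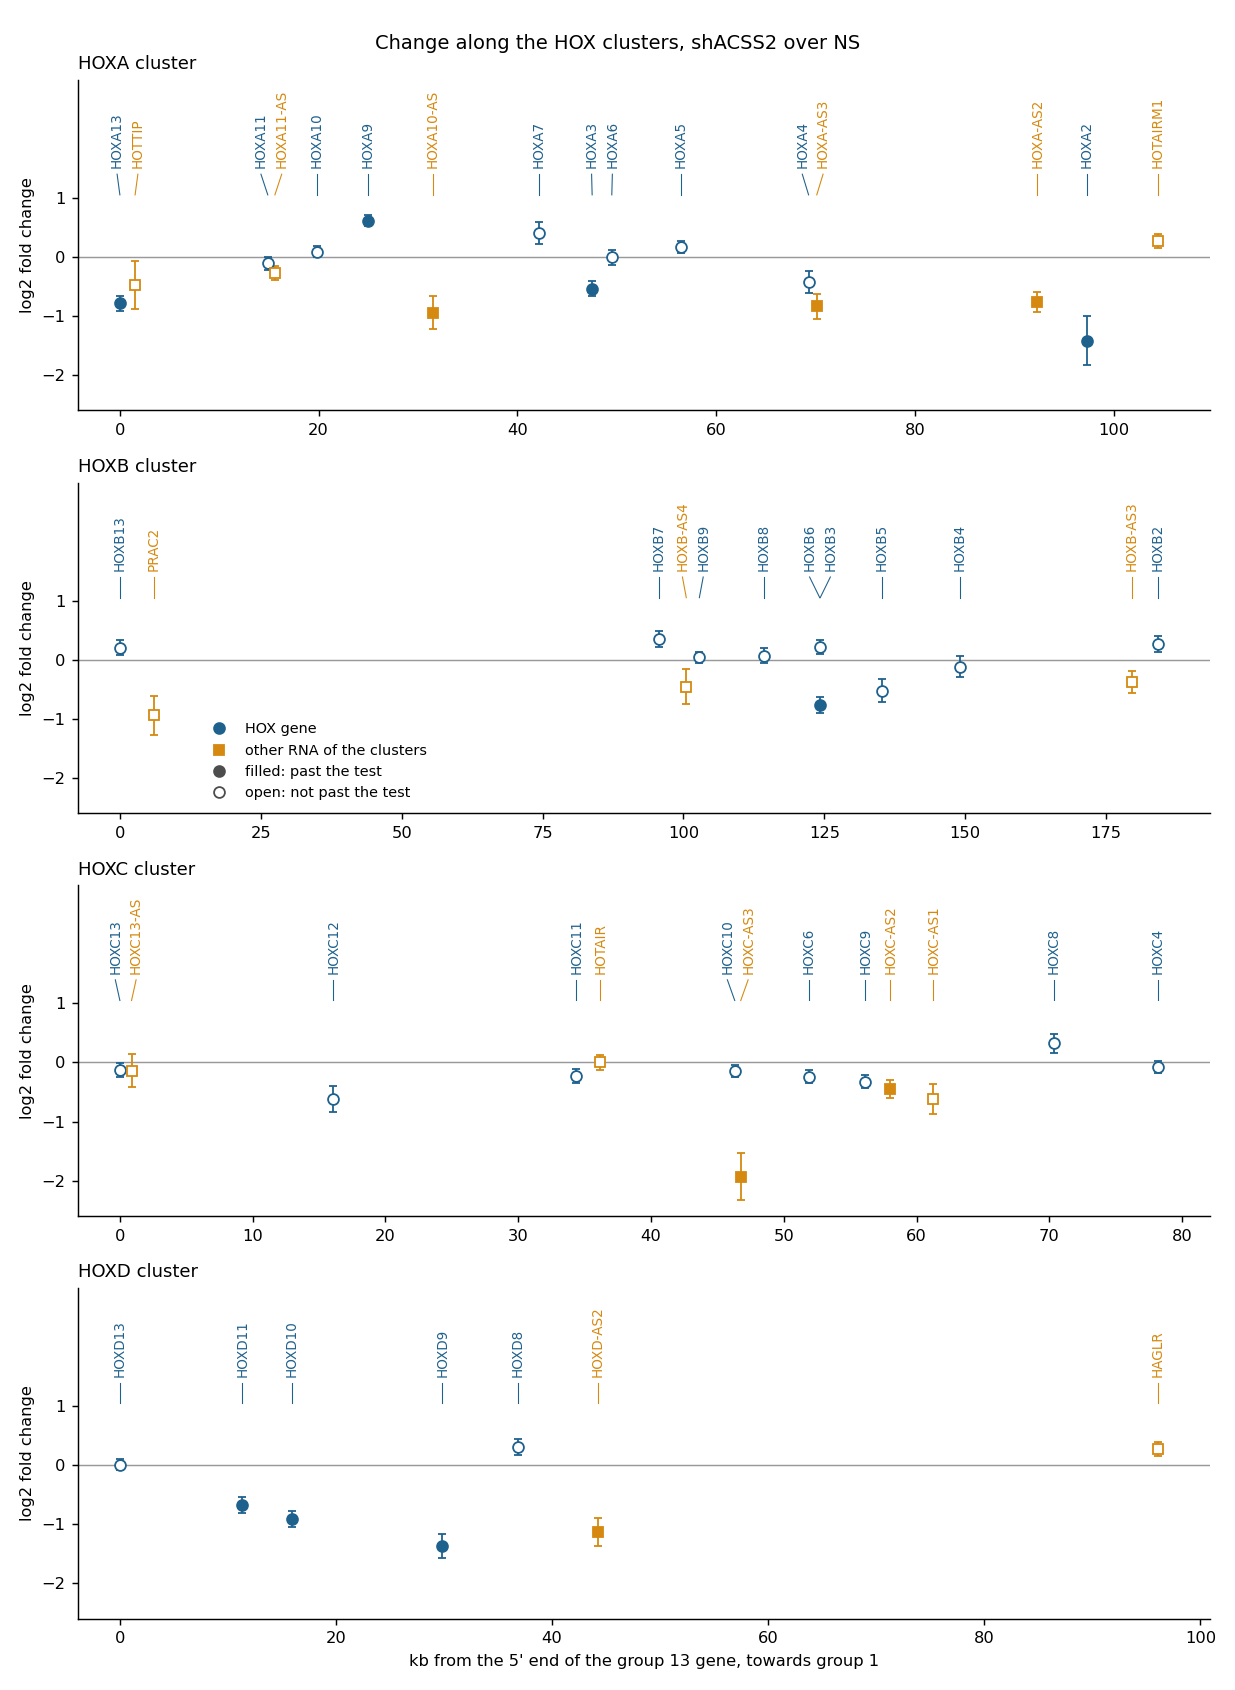
Log2 fold change, shACSS2 over NS, of HOX genes (blue circles) and other RNAs of the clusters (orange squares) against the position of each gene's annotated 5′ end, in kb from that of the group 13 gene. Bars are standard errors and filled symbols passed the test. By 5′ end, the filled symbols of HOXD from HOXD11 to HOXD-AS2 (−0.68 to −1.36) lie on both sides of HOXD8, an open circle at 0.31. The annotated span of HOXD-AS2 itself covers HOXD8 and HOXD9 on the other strand. In HOXA the single filled symbol above 0, HOXA9, lies between HOXA13 and HOXA10-AS, both filled and below 0.

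Of 16 tested neighbours within 500 kb of a cluster, 4 fell and 1 rose, with a median log2 fold change of 0.01. Of 11 listed genes farther away, 3 fell and 0 rose, with a median of 0.02. Over both sets 25.9% fell and 3.70% rose, against 9.64% and 7.48% of all genes. COPZ1, a coatomer subunit 245 kb from HOXC, fell by 1.15 on the log2 scale (SE 0.0932; adjusted p = 4.63e-06 by edgeR), and CBX5, which encodes the heterochromatin protein HP1 alpha and lies 175 kb from HOXC, fell by 0.57 (SE 0.1; adjusted p = 0.00178 by edgeR). The tested genes nearest to HOXD on either side, MTX2 and LNPK, did not pass (log2 fold changes 0.20 and −0.06).

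HOX proteins bind DNA with partners of the TALE class (PBX, MEIS and PKNOX), and most of these were present and did not pass. Of 11 TALE genes tested, 1 rose (9.09%) and none fell (0%) by edgeR, against 7.48% and 9.64% of all genes. By edgeR 4 were lower at an unadjusted p under 0.05, while DESeq2 called 1 lower and voom 0. The median log2 fold change was −0.21. TGIF1, a repressor of the class, had 17.9, 16.3 and 14.7 CPM in shACSS2 libraries, against 11.0, 10.2 and 8.48 CPM in NS libraries, a log2 fold change of 0.72 (SE 0.145; adjusted p = 0.00391 by edgeR). PBX2 and PBX3, partners of many HOX proteins, had log2 fold changes of −0.28 and −0.27 (adjusted p = 0.0587 and 0.0872 by edgeR). MEIS1 and MEIS2 had −0.26 and −0.13.

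Among the regulators of the clusters, 7 of 28 polycomb genes and 9 of 22 trithorax genes and coactivators passed the test. Of the polycomb genes 3 rose (10.7%) and 4 fell (14.3%), against 7.48% and 9.64% of all genes, with a median log2 fold change of 0.07. PCGF5, of a variant PRC1, had 42.0, 35.6 and 33.9 CPM in shACSS2 libraries, against 66.0, 66.5 and 64.1 CPM in NS libraries, a log2 fold change of −0.82 (SE 0.107; adjusted p = 0.000176 by edgeR). The chromobox genes CBX6 and CBX7 rose by 0.60 and 0.67 and CBX2 fell by 0.50, of which the call of CBX7 was lost without shACSS2 replicate 2 (adjusted p = 0.188) or any 1 NS library (0.0583 to 0.137) and with library totals (0.0600), and that of CBX2 without NS replicate 3 (adjusted p = 0.0502). Of the trithorax genes and coactivators 1 rose (4.55%), 8 fell (36.4%) and 13 did not pass, against 7.48% and 9.64% of all genes that rose and fell, with a median log2 fold change of −0.24. KAT6B, a histone acetyltransferase, had 30.6, 28.8 and 32.1 CPM in shACSS2 libraries, against 57.5, 51.2 and 51.9 CPM in NS libraries, a log2 fold change of −0.81 (SE 0.104; adjusted p = 0.000157 by edgeR). KDM6B, a demethylase of the polycomb mark, fell by 0.71 (SE 0.139; adjusted p = 0.00333 by edgeR). KMT2D, a methyltransferase of enhancers, fell by 0.50 (adjusted p = 0.0221 by edgeR), a call lost with the GC and length correction (adjusted p = 0.397), without shACSS2 replicate 1 (0.231) and without NS replicate 1 (0.17). DPY30, the single riser, lost its call without NS replicate 1 (0.0959) or 3 (0.121).

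Of 26 signals and factors upstream of the clusters, 4 rose (15.4%) and 2 fell (7.69%), against 7.48% and 9.64% of all genes. NR6A1, a nuclear receptor that acts on the trunk-to-tail transition in mice, had 46.0, 46.5 and 46.0 CPM in shACSS2 libraries, against 28.1, 25.7 and 24.6 CPM in NS libraries, a log2 fold change of 0.82 (SE 0.104; adjusted p = 0.000134 by edgeR). RARB, a retinoic acid receptor, had 12.3, 15.0 and 14.5 CPM in shACSS2 libraries, against 19.1, 20.4 and 20.1 CPM in NS libraries, a log2 fold change of −0.51 (SE 0.126; adjusted p = 0.0125 by edgeR), which missed the threshold without NS replicate 3 (adjusted p = 0.0547). RXRG rose by 0.55 and FGF17, at a mean of 0.466 CPM in shACSS2 and 1.27 CPM in NS, fell by 1.44, and both calls were lost under several settings (adjusted p up to 0.142 and 0.227). FGF17, with 10, 9 and 4 counts in shACSS2 libraries, passed the filter on low counts through the NS libraries only. Of 6 related homeobox genes tested, none passed edgeR, DESeq2 or voom, and 1, MEOX1, was lower at an unadjusted p under 0.05 (log2 fold change −0.92, adjusted p = 0.0544 by edgeR).

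Markers of other cell types were followed beside the HOX genes. The embryonic kidney list summed to 793 to 870 CPM in shACSS2 and 821 to 914 in NS, and none of its 11 tested genes passed edgeR, DESeq2 or voom (1 higher and 1 lower at an unadjusted p under 0.05). The sympathoadrenal list summed to 62.9 to 78.9 CPM in shACSS2 and 62.9 to 67.8 in NS. Of its 7 tested genes 1 rose (14.3%) and 3 fell (42.9%), against 7.48% and 9.64% of all genes. ISL1 rose (log2 fold change 0.51), and CHGA, MYCN and CHGB fell (−1.68, −1.14 and −1.03). The calls of ISL1, MYCN and CHGB were lost without single libraries (adjusted p up to 0.0955, 0.131 and 0.129 by edgeR). The 3 that fell were scarce, with means of 0.589, 0.787 and 1.06 CPM in shACSS2, against 1.92, 1.75 and 2.16 in NS. CHGA and MYCN passed the filter on low counts through the NS libraries only. The fibroblast list summed to 58.3 to 73.6 CPM in shACSS2 and 48.8 to 53.4 in NS, which do not overlap. Of its 10 genes, COL1A2 (0 counts in every library), THY1 and DCN did not pass the filter on low counts. DCN had a mean of 0.041 CPM in shACSS2 and 0.172 in NS, all shACSS2 libraries being lower. All 7 of the tested genes had a log2 fold change above 0, with a median of 0.51, and 2 of them (28.6%, against 7.48% of all genes) rose. These were LUM (1.45) and TWIST1 (0.51), the second lost with library totals (adjusted p = 0.0697) and without shACSS2 replicates 2 or 3 or NS replicates 1 or 3 (0.116 to 0.182). The Schwann and glial list summed to 31.9 to 35.1 CPM in shACSS2 and 30.9 to 35.9 in NS, and the endothelial and immune list to 2.74 to 3.55 in shACSS2 and 2.79 to 4.01 in NS, and none of their 3 and 1 tested genes passed any of these tools or reached an unadjusted p under 0.05. The part of these markers in the HOX results was not tested.

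A 7-base word, ATGCTCA or TGCTCAA, that an earlier look at the same fold changes had picked out in 3′ UTRs was seldom found in HOX genes. It occurred in the longest annotated 3′ UTR of 1 of 33 tested members (3.03%), against 18.0% of 13262 genes and 43.9% of the 1312 that fell. The member is HOXB3, whose site lies on the minus strand at chr17:48549298-48549324 (GENCODE v29, GRCh38; capitals mark the word).
HOXB3: agtccagcatTGCTCAAaaaagcgtgt
The other 6 members that fell, HOXD9, HOXD10, HOXD11, HOXA13, HOXA2 and HOXA3, lack the word in the annotated form. Among the regulators and neighbours named above that fell, PCGF5, CBX2, KDM6B and COPZ1 hold it and KAT6B, KMT2D, RARB, FGF17 and CBX5 do not. The median length of these 3′ UTRs was 981 bases in the HOX genes and 1392 bases over all genes, and the part of length in the share was not tested.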

How the data were processed

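RNA sequencing of 6 libraries was used. The authors deposited raw, whole-number counts per gene and library. The submitters' processing notes name fastp, HISAT2 2.0.5, featureCounts 1.5.0-p3, DESeq2 (given as 4.3.1) and the build hg19, with no order or role stated. Every gene identifier was found in GENCODE v29, an annotation of GRCh38, so the build of the alignment is unsettled. Coordinates were looked up in GENCODE v29 by identifier, since the table has none. No source used here says how reads on overlapping genes were treated.

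Counts were tested across 16210 genes with edgeR 4.0.16 (R 4.3.3; TMM, filterByExpr, robust quasi-likelihood F test, group as the only term, Benjamini-Hochberg adjustment). Standard errors are the fold change divided by the root of F. Replicate pairs of a group differed beyond sampling noise (chi-square per degree of freedom 4.28 to 17.3). At a library's depth 3 counts are 0.144 to 0.181 CPM. Alternatives were RLE, upper quartile and library-total scaling, no filter or 1 CPM in 3 libraries, DESeq2 1.42.0, limma 3.58.1 voom, omission of mitochondrial genes or of each library, a replicate block, a GC and length correction, both together, and an adjusted p of 0.01. The fit was tested on simulated data.

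The HOX members and all gene lists were chosen with earlier results of these data known. Single results of a few genes, 1 HOX member among them, are not reported here, though they remain in counts and sums. Values per library are given for called members, for the highest per length and the largest rise and fall of each cluster, and for named genes of the lists (up to 4 called with the largest change, or 2 with the smallest p). For some genes of the lists the fold change alone is printed.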

Additional observations from a re-analysis of the deposited data

How the results depend on the processing

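HOXA9 and 6 of the 7 members that fell kept their calls in all 17 alternatives with a fit, and HOXA2 lost its call in 5. ACSS2 kept its direction and call (−2.06 to −1.85). With library totals 734 genes were called higher, the HOX median was −0.18, the log2 ratios of summed CPM were −0.16 (all HOX), −0.23 (HOXC), −0.29 (HOXD) and −0.040 (HOXB, reversed), and HOXB8 (−0.0035), HOXB9 (−0.036) and HOXD13 (−0.066) turned negative. With the GC and length correction 2815 genes and 2 HOX members were called higher, and HOXA6 (0.0011), HOXD13 (−0.031) and ERBB3 (0.054) reversed. The replicate block with that correction gave 2953 genes and 2 members higher, with HOXA6 (0.0043), HOXD13 (−0.030) and ERBB3 (0.059) reversed. At an adjusted p of 0.01, 330 genes were higher and 680 lower. The cause of these shifts was not tested.

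Omitting a library at a time gave 310 to 1837 genes called higher and 708 to 2094 lower, 1 to 2 HOX members higher and 6 to 7 lower, and a HOX median of −0.14 to −0.054. Log2 ratios of summed CPM ran from −0.11 to −0.056 (all HOX), −0.083 to 0.0031 (HOXA, reversed without NS replicate 3), −0.022 to 0.077 (HOXB, reversed without shACSS2 replicate 3), −0.18 to −0.13 (HOXC) and −0.23 to −0.21 (HOXD). Signs turned among these omissions for HOXA6 (−0.087 to 0.053), HOXB8 (−0.024 to 0.17), HOXB9 (−0.012 to 0.092), HOXD13 (−0.037 to 0.058) and ERBB3 (−0.18 to 0.019).

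Libraries with the same number did not pair (correlations of deviations −0.04, −0.05 and 0.10). The replicate block called 1283 genes higher and 1640 lower, with 1 HOX member higher and 8 lower (HOXB5 added). The 6 detected members with a mean under 1 CPM did not pass the count filter. With no filter they entered the test, and the 8 members called lower were the 7 and HOXB5.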
